A study of Mus musculus with 12 samples.

Results

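The comparison described here is 4E against OA in heavy polysomes: the 3 libraries labelled 4E and heavy, set against the 3 labelled OA and heavy, which are 6 of the 12 libraries of the series. The labels describe all 6 as polyA-selected RNA of CD4+ T cells from C57BL/6 mice, sorted on CD4 and CD45. According to the protocols in the labels, every mouse was first immunised with a preparation written there as AOV alum. The mice then received by mouth, once a day for 7 days, either 4EGI-1 at 25 mg/kg or vehicle alone. The labels do not spell out the arms; here 4E was read as the 4EGI-1 arm and OA as the vehicle arm. No age or sex is given. The labels do not tie replicates to separate mice, and a p-value here therefore speaks only of the scatter among these libraries, which could be technical. The remaining 6 libraries hold total (input) RNA of the same 2 arms. Genes entered the comparison when they had at least 10 counts in at least 3 of the 6 heavy libraries, which left 6986 genes of the 26485 gene rows.

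A ribosome that reads a messenger RNA adds mass to it, so messages that carry many ribosomes sediment deep in a sucrose gradient and are collected as heavy polysomes. The cap-binding protein eIF4E brings ribosomes to the 5′ end of messages by joining the scaffold eIF4G, and 4EGI-1 is known as an inhibitor of that contact. In activated CD4+ T cells this step supports growth and division. The level of a gene in heavy polysomes depends both on how much of its message a cell holds and on how much of that message carries many ribosomes. In bulk samples, fewer cells of a type and less RNA per cell cannot be told apart.

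Reads in genes numbered 939103, 960567 and 691449 in 4E replicates 1 to 3 and 1906657, 956769 and 881639 in OA replicates 1 to 3. OA replicate 1 stood apart. Its counts differed from those of the other 5 libraries by 21.98 to 44.3 chi-square units per degree of freedom, against 3.80 to 8.41 between any pair of the others. Small noncoding RNAs, with 7SL RNA (the core of the signal recognition particle) in front, were 10.6, 14.5 and 16.9% of gene reads in 4E, against 3.14, 9.70 and 12.03% in OA. The lowest share was that of OA replicate 1. The difference of 5.72 percentage points gave p = 0.2 in an exact two-sided permutation test, in which 3 against 3 libraries cannot go below 0.1. The label of 4E replicate 3 carries the word ReSubmission, without a reason. Some T cell genes were counted in all 6 libraries, while others were near or at 0. PTPRC (CD45), a marker used in the sort, had 838, 704 and 412 counts in 4E and 2646, 697 and 618 in OA. LCK, the kinase bound to CD4, had 672, 571 and 427 counts in 4E and 1168, 539 and 431 in OA. CD4 itself had 15, 0 and 4 counts in 4E and 44, 7 and 1 in OA, and CD3D was at 0 in all 6. Levels below are CPM, the usual depth-scaled gene counts, after trimmed-mean (TMM) scaling, for replicates 1, 2 and 3 in that order. Log2 changes are 4E minus OA with their standard errors, 3 libraries in each group.

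No gene passed the threshold in the main test, edgeR's quasi-likelihood test with Benjamini-Hochberg adjustment over the 6986 genes at 0.05 (0%). At an unadjusted p under 0.05 it found 798 genes (11.4%), 327 higher in 4E (4.68%) and 471 lower (6.74%). DESeq2 placed 4 genes (0.0573%) past the same adjusted threshold, all lower in 4E: COL3A1, MPO, TOP2A and JCHAIN. Its unadjusted p was under 0.05 for 707 genes (10.1%), of which 305 were higher (4.37%) and 402 lower (5.75%). By direction alone, 48.7% of genes were higher and 51.3% lower. In 584 genes (8.36%) all 3 4E libraries lay above all 3 OA libraries, and in 590 genes (8.45%) all 3 lay below; without composition scaling these numbers were 326 and 883. With an absolute log2 change over 1 besides the unadjusted p, 342 genes (4.9%) remained, 76 higher in 4E (1.09%) and 266 lower (3.81%). Of the tested genes, 135 passed the count filter through the OA libraries alone, with under 10 counts in every 4E library. Through the 4E libraries alone 1 gene passed. COL3A1, MPO and JCHAIN, which DESeq2 called, were among the 135. So were VDAC3, SHANK3, ADGRG1, CCNA2, ESPL1, ATP5J, NDUFA8, FAM173A, FDFT1, IFIH1, TUBB1 and SPI1, named below. With a filter on the mean level over all 6 libraries instead (at least 10 CPM, 6849 genes), chosen after seeing the data, the same threshold gave 77 higher and 258 lower genes. The calls depended on the count filter: with every gene that had a read in these 6 libraries tested, the same edgeR test called 107 genes, 29 higher and 78 lower. Unless stated otherwise, the genes named below had an adjusted p of 0.373 or more in edgeR's quasi-likelihood test with the filter, and their differences are given as values. Scaling libraries by their totals alone, with no correction for composition, moved the median log2 change of all tested genes to -0.16, against -0.018 with TMM scaling.

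**Figure D1:**
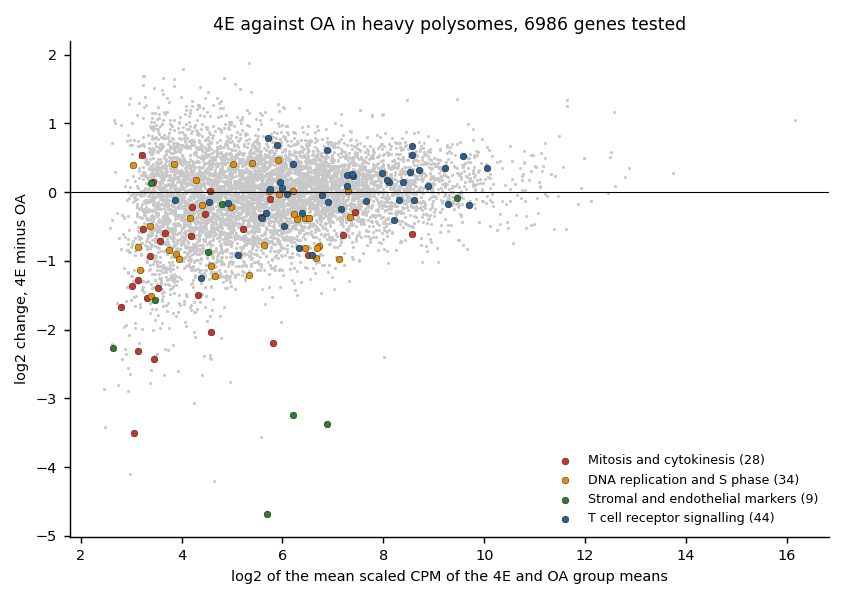
Log2 change (4E minus OA) of each of the 6986 tested genes against the log2 of its mean level in scaled CPM, with the tested members of 4 gene lists in colour. Mitosis and stromal genes reach far below 0, down to -3.50 and, for COL3A1, -4.68. S phase genes reach down to -1.51. T cell receptor signalling genes, mostly at higher levels, reach down to -1.25 around a median of 0.055.

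Heavy polysomes of 4E held less of the messages of cell division. Over all members in the table, tested or not, the mitosis and cytokinesis list summed to 1092, 1017 and 1009.8 CPM in 4E, against 1789, 1708 and 1612 CPM in OA. The list of DNA replication and S phase genes summed to 1578, 1602 and 1673 CPM in 4E, against 2172, 2345 and 2071 CPM in OA. Both sums lay lower in every 4E library than in any OA library. The lowest OA sums came from OA replicate 3, not from the library that stood apart. Of the 28 tested mitosis genes, 25 were lower in 4E and 10 lay below all OA libraries (35.7%, against 8.45% of all tested genes). Their median log2 change was -0.68, against -0.018 over all genes. Of these 28, 8 passed the count filter through the OA libraries alone. With the filter on the mean level, 20 mitosis genes were tested, of which 18 were lower and 5 lay below all OA libraries (25%, against 8.21% of all genes so tested), at a median of -0.61. Of the 34 tested S phase genes, 25 were lower, 10 lay below all OA libraries (29.4%) and 1 passed through OA alone. With the filter on the mean level it was 10 of 31 (32.3%). The median of the 34 was -0.38. Without OA replicate 1 the medians were -1.02 for mitosis and -0.47 for S phase.

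TOP2A, the topoisomerase that untangles replicated chromosomes, had 9.75, 13.1 and 40.96 CPM in 4E, against 134, 63.4 and 76.2 CPM in OA. All 4E values lay below all OA values, and the log2 change was -2.19 ± 0.47 (adjusted p = 0.354 in edgeR and 0.0194 in DESeq2). CCNA2, which encodes cyclin A of S and G2 phase, had 0, 1 and 2 counts in 4E, against 33, 14 and 14 counts in OA. Its 4E counts lie under the floor of 3 counts per library, so its fitted log2 change of -3.50 ± 0.83 is imprecise. ESPL1, the separase that cuts cohesin at anaphase, had 4, 0 and 4 counts in 4E, against 29, 28 and 12 counts in OA (-2.42 ± 0.78).

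MCM6, a subunit of the replicative helicase, had 89.9, 107 and 86.6 CPM in 4E, against 216, 196 and 141 CPM in OA (-0.97 ± 0.24). Its partner MCM3 had 69.3, 68.5 and 70.9 CPM in 4E, against 131, 171 and 102 CPM in OA (-0.95 ± 0.26). POLE, the leading-strand polymerase, had 24.9, 25.01 and 23.6 CPM in 4E, against 50.3, 76.4 and 43.2 CPM in OA (-1.20 ± 0.35). In each of these 3 genes the 4E libraries agreed closely with each other and lay below every OA library. Not all replication genes shared this: 9 of the 34 had a positive log2 change, the highest being CLSPN at 0.47, and the helicase subunit MCM2 had 154, 139 and 181 CPM in 4E, against 137, 154 and 176 CPM in OA. CLSPN and MCM2 were picked out after their values were seen.

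The stretches of 150 bases before the start of TOP2A, MCM6 and MCM3 are shown because these genes were low together and genes of cell division share known promoter elements. They come from RefSeq, build GRCm38.p6, and all 3 genes lie on the minus strand. TOP2A is at chr11:99024190-99024339, MCM6 at chr1:128359706-128359855 and MCM3 at chr1:20820313-20820462. Capitals mark the E2F motif (TTTCCCGC, TTTGGCGC, TTTCGCGC or TTTGCCGC), the cell cycle homology region (TTTGAA or TTCGAA) and the CCAAT box (CCAAT). Each was searched on both strands. Overlapping matches run into one block, as in the first block of MCM6.
TOP2A: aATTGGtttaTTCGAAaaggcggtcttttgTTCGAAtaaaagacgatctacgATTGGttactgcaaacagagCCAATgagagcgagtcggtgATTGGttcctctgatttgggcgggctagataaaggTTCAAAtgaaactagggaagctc
MCM6: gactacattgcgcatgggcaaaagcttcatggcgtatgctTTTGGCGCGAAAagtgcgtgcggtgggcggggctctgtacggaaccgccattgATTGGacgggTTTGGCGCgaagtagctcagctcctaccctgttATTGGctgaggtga
MCM3: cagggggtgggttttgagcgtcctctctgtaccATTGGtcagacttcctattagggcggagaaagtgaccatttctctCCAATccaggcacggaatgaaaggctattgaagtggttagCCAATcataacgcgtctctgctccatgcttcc
TOP2A holds 3 matches to the cell cycle homology region and 4 to CCAAT, MCM6 holds 3 to E2F and 2 to CCAAT, and MCM3 holds 3 to CCAAT. In the 250 bases before the start, 56.5% of the 23 mitosis genes with a promoter in the table held a cell cycle homology region, against 17.4% of all 27025 promoters and 11.1% of the 5187 promoters of tested genes. For E2F the shares were 20.7% of 29 S phase genes, 1.91% of all promoters and 3.93% of those of tested genes. CCAAT stood in 71.2% of the 52 promoters of both lists, in 34.5% of all and in 35.7% of those of tested genes. A match is a string of letters in this window and was not tested for binding.

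Replication-dependent histones, made in S phase to pack new DNA, were low as well, although their sums overlapped. The list summed to 3315, 3684 and 4561 CPM in 4E, against 6142, 5595 and 4398 CPM in OA. Of 41 tested histone genes, 35 were lower in 4E, 9 lay below all OA libraries (21.95%, against 8.45% of all tested genes), and the median log2 change was -0.68 (-0.47 without OA replicate 1). HIST1H4F had 45.5, 54.4 and 66.2 CPM in 4E, against 171, 139.8 and 81.9 CPM in OA (-1.26 ± 0.30), and HIST1H4E had 14.1, 3.26 and 4.73 CPM in 4E, against 70.005, 25.1 and 23.9 CPM in OA (-2.42 ± 0.61). HIST1H4L stood at -1.41 ± 0.36 with overlapping groups. Near-identical histone copies may have had their reads split or dropped by the authors' counting, so single histone genes are uncertain. How far the polyA selection named in the labels affected histone reads was not tested.

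**Figure D2:**
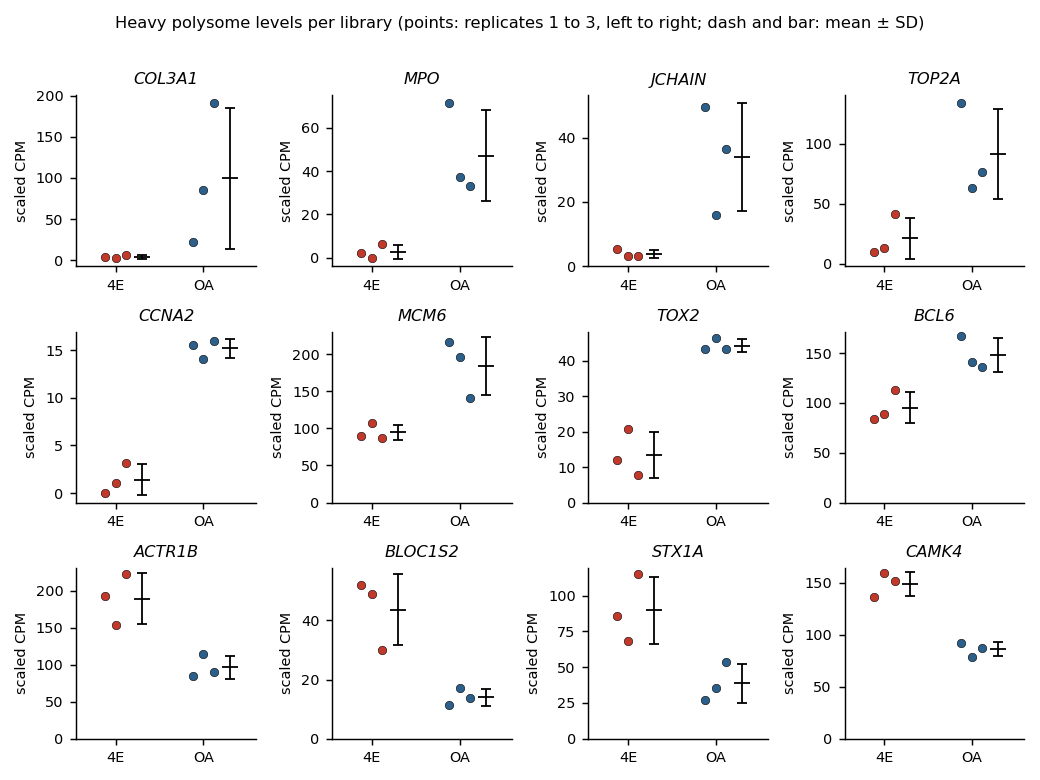
Level in scaled CPM of 12 genes in each heavy polysome library, 4E left of OA, with points for replicates 1 to 3 from left to right and a dash with a bar for the mean ± SD. In all 12 genes the 2 groups do not overlap; the first 8 are lower in 4E and the last 4 higher.

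Among genes of T follicular helper (TFH) cells, the CD4+ cells that help B cells, 2 of the 3 members of smallest p were lower in 4E. TOX2, a factor of the TFH programme, had 11.9, 20.7 and 7.88 CPM in 4E, against 43.2, 46.3 and 43.2 CPM in OA, with a log2 change of -1.67 ± 0.43. BCL6, the repressor that specifies TFH cells, had 83.4, 89.2 and 113 CPM in 4E, against 167, 141 and 136 CPM in OA (-0.65 ± 0.23). CXCR5, the receptor that leads these cells to follicles, had 10.8, 11.96 and 20.5 CPM in 4E, against 37.6, 25.1 and 19.3 CPM in OA (-0.97 ± 0.47), and 1 4E library overlapped the OA range. The list as a whole was mixed. Of 18 tested genes, 14 were lower and 4 higher, and its sum of 2829.5, 3027 and 3045 CPM in 4E overlapped the 2829.8, 2919 and 2777 CPM of OA. PDCD1 (PD-1) had 0 counts in all 4E libraries and 8, 1 and 0 in OA. ICOS had 0 in all 4E libraries and 14, 0 and 0 in OA. Both were too low to test, and a count of 0 allows up to 3 counts per library.

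Regulatory T cell genes summed to 584, 531 and 498 CPM in 4E, against 1057, 651 and 608 CPM in OA. Every 4E sum lay below every OA sum, with the highest in OA replicate 1. CTLA4, the inhibitory receptor, had 70.4, 32.6 and 40.96 CPM in 4E, against 138, 61.3 and 109 CPM in OA (-1.10 ± 0.35). IKZF4 and CAPG stood at -1.39 ± 0.51 and -1.13 ± 0.43, and in all 3 the groups overlapped. Of 10 tested members 9 were lower, at a median of -0.41 that became -0.17 without OA replicate 1. FOXP3, the defining factor, was looked up after the list values were seen and had 88.8, 72.9 and 52.0 CPM in 4E, against 84.6, 61.3 and 68.2 CPM in OA.

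Signalling genes downstream of the T cell receptor were balanced in sign but held many members with clean separation. Of 44 tested, 23 were higher and 21 lower, and 10 lay above all OA libraries (22.7%, against 8.36% of all tested genes), while 0 lay below. Their median of 0.055 became -0.088 without composition scaling. CD5, a surface brake on the receptor, had 60.7, 65.2 and 74.04 CPM in 4E, against 38.5, 36.2 and 40.9 CPM in OA (0.78 ± 0.29). LCK, the kinase that starts receptor signalling, had 728, 621 and 673 CPM in 4E, against 549, 542 and 490.0 CPM in OA (0.35 ± 0.19). In both genes each 4E library exceeded each OA library, and so it did in ZAP70, the kinase that binds the activated receptor (0.54 ± 0.21). The adaptor LAT stood at 0.063 ± 0.34 and the receptor chain CD247 at 0.14 ± 0.29. Both signs turned without composition scaling (-0.060 for LAT and -0.0096 for CD247). The receptor chain CD3E went the other way and was uneven between replicates, with 92.1, 57.6 and 26.8 CPM in 4E, against 202, 74.4 and 30.7 CPM in OA; its log2 change of -0.81 ± 0.53 became 0.18 without OA replicate 1. The co-receptor CD28, which lowers the threshold of activation, had 31.4, 22.8 and 18.9 CPM in 4E, against 73.8, 35.2 and 27.3 CPM in OA (-0.91 ± 0.43), with overlapping groups.

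Cytokine signalling showed the same kind of small shifts. STAT3, the transducer of interleukin 6 and interleukin 21 signals, had 697, 819 and 764 CPM in 4E, against 336, 519.9 and 658 CPM in OA (0.59 ± 0.24). SOCS3, its feedback inhibitor, had 347, 301 and 384 CPM in 4E, against 251, 259 and 232 CPM in OA (0.47 ± 0.20), and the 4E libraries were above all OA libraries in both genes. STAT5B stood at 0.63 ± 0.25 with overlapping groups. The 25 tested genes of the list divided into 14 higher and 11 lower, at a median of 0.031 (-0.11 without composition scaling). Among lineage factors, ZBTB16 (PLZF), the factor of innate-like T cells, had 154, 140.3 and 219 CPM in 4E, against 73.8, 116 and 125 CPM in OA (0.71 ± 0.27). GFI1, a repressor in helper T cells, had 48.7, 91.3 and 117 CPM in 4E, against 37.1, 43.2 and 31.8 CPM in OA (1.18 ± 0.34). CAMK4, a calcium-dependent kinase of T cells, had 136, 159 and 151 CPM in 4E, against 92.1, 78.4 and 87.5 CPM in OA (0.79 ± 0.23). GFI1 and CAMK4 were among the 12 genes of smallest p on the higher side. RUNX3, a factor of type 1 helper cells, stood at 0.70 ± 0.33 with overlapping groups, and RORA, a factor of type 17 helper cells, at 0.29 ± 0.21 without overlap. LEF1, a factor of naive cells, had 669, 625 and 629 CPM in 4E, against 434, 494 and 458 CPM in OA (0.47 ± 0.19). KLF6, a zinc finger factor, had 708, 513 and 479 CPM in 4E, against 1391, 800.5 and 697 CPM in OA (-0.77 ± 0.27), the highest level being that of OA replicate 1. Immediate early genes respond within minutes to stimulation. Among them EGR1 had 359.6, 311 and 280.4 CPM in 4E, against 757, 424 and 432 CPM in OA (-0.77 ± 0.25), and KLF4 had 131, 133 and 106 CPM in 4E, against 365, 195 and 167 CPM in OA (-0.98 ± 0.28). Of 33 immediate early genes tested, 22 were lower and 11 higher, with 6 below all OA libraries (18.2%, against 8.45% of all tested genes) and 4 above (12.1%, against 8.36%).

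Of the eIF4F complex that 4EGI-1 acts on, the cap-binding subunit itself was hardly seen. EIF4E had 7, 0 and 3 counts in 4E and 13, 0 and 3 in OA and could not be tested. EIF4A1, the helicase of the complex, was at 0 in all 6. EIF4EBP1, an inhibitory binding protein, had 0 in all 4E libraries and 10, 1 and 8 counts in OA. EIF4G1, the scaffold, had 770.2, 671 and 595 CPM in 4E, against 797, 784 and 748 CPM in OA (-0.19 ± 0.19), and the groups overlapped. EIF4G3 had 509, 432 and 539 CPM in 4E, against 342, 397 and 519.6 CPM in OA (0.24 ± 0.21), and EIF4EBP2 stood at 0.076 ± 0.32, a sign that flipped without composition scaling (-0.075). The lowest p in the list of eIF4F subunits, their relatives and 4E-binding proteins was that of EIF4G2, an eIF4G relative that does not bind eIF4E, with 1573, 972 and 882 CPM in 4E, against 3052, 1503 and 1148 CPM in OA. Its log2 change of -0.74 ± 0.33 became -0.22 without OA replicate 1. Of the 18 tested genes of this list 9 were higher and 9 lower, at a median of -0.039. PABPC4, a poly(A)-binding protein, stood at -0.42 ± 0.20 without overlap, and EIF4A2, the second helicase, at -0.40 ± 0.22 with overlap.

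Messages known as sensitive to eIF4E did not move together. Of 25 tested, 11 were higher and 14 lower, at a median of -0.062, with 4 above all OA libraries (16%, against 8.36% of all tested genes) and 5 below (20%, against 8.45%). VEGFA, the vascular growth factor, had 82.3, 82.6 and 128 CPM in 4E, against 36.6, 66.4 and 56.8 CPM in OA (0.88 ± 0.31). MYC had 186, 273 and 373 CPM in 4E, against 164, 256 and 304 CPM in OA (0.20 ± 0.28). CCND2, cyclin D2, had 219, 284 and 257 CPM in 4E, against 188, 185 and 196 CPM in OA (0.42 ± 0.20), and CCND3 stood at -0.31 ± 0.23. MYC overlapped between the groups, while VEGFA and CCND2 were higher in every 4E library. On the lower side, GLUL, glutamine synthetase, had 46.6, 42.4 and 63.01 CPM in 4E, against 92.6, 86.5 and 76.2 CPM in OA (-0.76 ± 0.28), and CDK4, the partner of D-type cyclins, stood at -1.40 ± 0.51 with overlapping groups.

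Ribosomal proteins, whose messages carry a 5′ terminal oligopyrimidine (TOP) tract and respond to mTOR, were lower as a list, but mostly against OA replicate 1. Their sum was 11252, 10677 and 10867 CPM in 4E, against 15814, 11501 and 10389 CPM in OA. Of 55 tested, 42 were lower at a median of -0.38; without OA replicate 1 the median was -0.085, with 32 lower and 23 higher. RPL23 had 101, 97.9 and 83.5 CPM in 4E, against 448, 112 and 123 CPM in OA (-1.29 ± 0.42, -0.31 without OA replicate 1). RPL35 had 213, 343 and 217 CPM in 4E, against 43.7, 143 and 160.3 CPM in OA (1.19 ± 0.37). RPL28 had 363, 476 and 463 CPM in 4E, against 261, 249 and 333 CPM in OA (0.63 ± 0.21), so that single members lay on either side. Ribosomal protein genes have many pseudogene copies, so the split of reads between them is uncertain. Other TOP messages summed to 3758, 3252 and 3474 CPM in 4E, below the 5059, 4129 and 3875 CPM of OA; IPO7, an importin, stood at -0.76 ± 0.24 and CCNI, a cyclin-like protein, at -1.02 ± 0.33, both without overlap, and GNB2L1 (RACK1), a ribosome-bound scaffold, at -0.70 ± 0.34 with overlap.

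Some factors of initiation and elongation were low in all 4E libraries. ABCE1, which recycles ribosomes after termination, had 6, 10 and 2 counts in 4E, against 141, 24 and 17 counts in OA, a log2 change of -2.39 ± 0.60. EEF1B2, the exchange factor of eEF1A, had 7, 11 and 4 counts in 4E, against 71, 32 and 20 counts in OA (-1.75 ± 0.48). EIF3M, a subunit of eIF3, had 108, 93.5 and 115 CPM in 4E, against 203, 135 and 147 CPM in OA (-0.62 ± 0.24). EIF5A, which helps ribosomes over difficult peptide bonds, had 125, 67.4 and 104 CPM in 4E, against 262, 187 and 115 CPM in OA (-0.94 ± 0.31). Only in EIF5A did the groups of these 4 genes overlap. EIF2S1, the alpha subunit of eIF2, stood at -1.06 ± 0.40, and EEF1G, another subunit of the eEF1 complex, at -0.65 ± 0.28. Of 29 initiation factors outside eIF4F, 18 were lower and 11 higher, and of 16 elongation and termination factors 13 were lower and 3 higher. Aminoacyl-tRNA synthetases, which charge transfer RNAs, had 14 of 21 members lower, with KARS at -0.49 ± 0.27, TARS at -0.63 ± 0.44 and WARS at -0.76 ± 0.41, all overlapping. Genes of the mTOR pathway had a median of 0.069 that became -0.071 without composition scaling. RRAGA, the RagA GTPase that brings mTOR to lysosomes, had 120.2, 164 and 169 CPM in 4E, against 51.7, 92.5 and 97.8 CPM in OA (0.92 ± 0.28). RPTOR (raptor) had 271, 331 and 301 CPM in 4E, against 104, 202 and 267 CPM in OA (0.67 ± 0.29). Both were higher in every 4E library, as was PIK3R1, a regulatory subunit of PI3 kinase (0.48 ± 0.19).

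**Figure D3:**
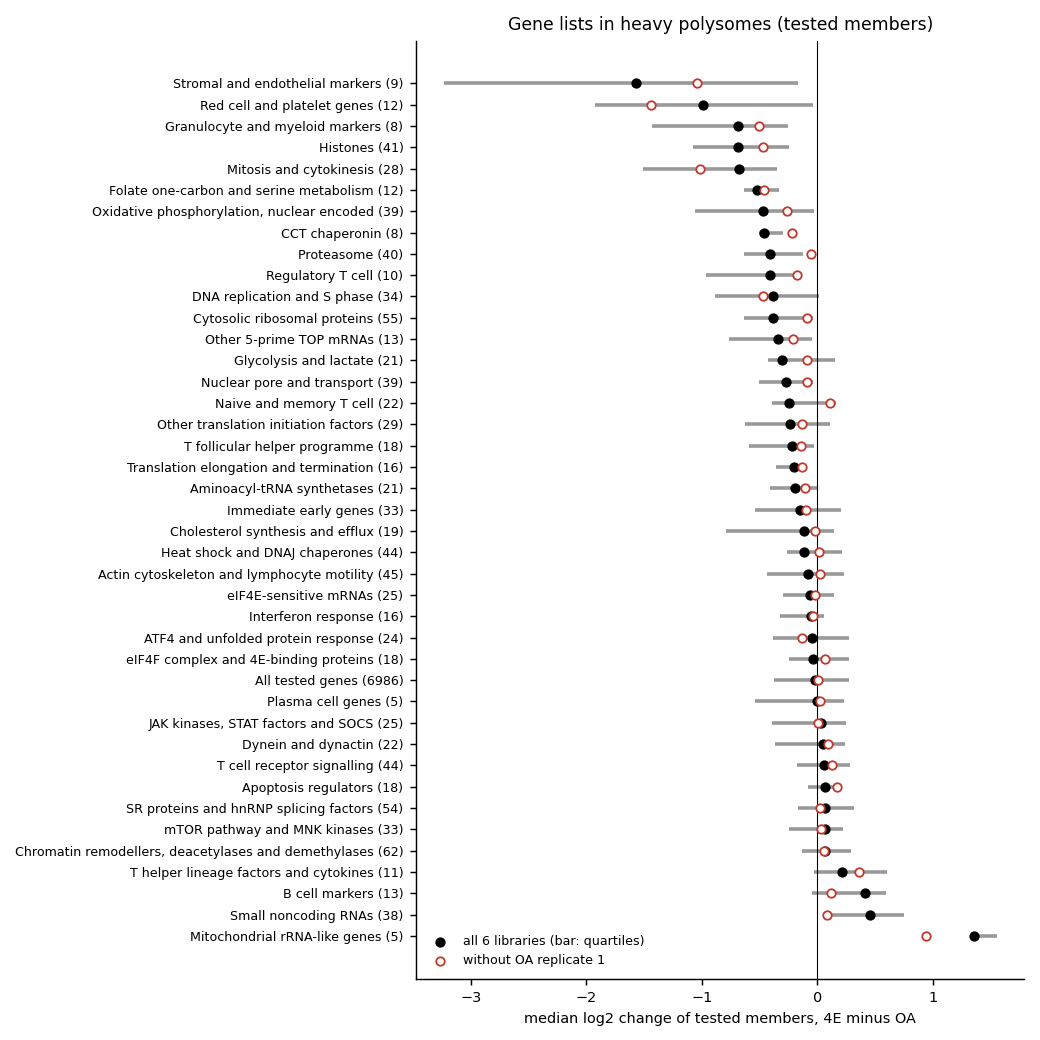
Median log2 change (4E minus OA) of the tested members of each list with 5 or more, with a bar from the lower to the upper quartile and, as open circles, the median without OA replicate 1. The number of tested members stands beside each name. Mitosis, S phase and one-carbon genes stay well below 0 without OA replicate 1, while proteasome and ribosomal protein genes move close to 0.

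Genes of energy metabolism and protein turnover were lower to a degree that depended on OA replicate 1. Nuclear-encoded subunits of oxidative phosphorylation had 30 of 39 tested members lower, at a median of -0.47 (-0.26 without OA replicate 1). COX5A, a subunit of cytochrome oxidase, had 22.7, 5.44 and 7.88 CPM in 4E, against 68.1, 36.2 and 21.6 CPM in OA (-1.80 ± 0.56). ATP5J, a subunit of ATP synthase, had 7.58, 5.44 and 6.30 CPM in 4E, against 16.9, 23.1 and 20.5 CPM in OA (-1.62 ± 0.53). NDUFA8, of complex I, stood at -1.47 ± 0.57; of the 39, 3 passed the filter through OA alone. VDAC3, a channel of the outer mitochondrial membrane, was among the 12 lower genes of smallest p, with 8, 8 and 3 counts in 4E, against 143, 23 and 27 counts in OA (-2.43 ± 0.53, adjusted p = 0.354). Proteasome genes had 31 of 40 lower at a median of -0.41, which became -0.057 without that library. PSMA2, a core subunit, had 38.997, 14.1 and 26.8 CPM in 4E, against 114, 50.3 and 44.3 CPM in OA (-1.41 ± 0.44). PSMB5, the chymotrypsin-like subunit, stood at -0.89 ± 0.37, and PSMD13, of the regulatory lid, at -0.58 ± 0.25, none of the 3 overlapping.

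The enzymes of folate one-carbon and serine metabolism, which supply nucleotide synthesis, kept their median more closely, at -0.52 with all libraries and -0.46 without OA replicate 1. They summed to 681, 667 and 644 CPM in 4E, against 996, 924 and 783 CPM in OA, and 11 of 12 tested members were lower. MTHFD1, the trifunctional folate enzyme, had 17.3, 16.3 and 20.5 CPM in 4E, against 51.7, 44.2 and 36.4 CPM in OA (-1.30 ± 0.38), with every 4E library below every OA library. PHGDH and SHMT2 stood at -0.58 ± 0.28 and -0.69 ± 0.35 with overlapping groups. In glycolysis, GAPDH had 134, 75.04 and 86.6 CPM in 4E, against 242, 139.8 and 132 CPM in OA (-0.80 ± 0.29), PGK1 stood at -0.79 ± 0.31 and the lactate carrier SLC16A1 at -1.26 ± 0.49, all with overlap. The list had 14 of 21 lower, at a median of -0.30 that became -0.092 without OA replicate 1. Of 19 cholesterol genes 11 were lower, among them FDFT1, squalene synthase, at -1.52 ± 0.59, DHCR7, the last enzyme of the pathway, at -1.09 ± 0.51 and HMGCS1 at -0.77 ± 0.35.

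Chaperone and stress lists differed in balance. The 8 subunits of the CCT chaperonin, which folds actin and tubulin, had 7 lower at a median of -0.46 (-0.22 without OA replicate 1); CCT3, CCT7 and CCT4 stood at -0.48 ± 0.23, -0.57 ± 0.30 and -0.54 ± 0.29. DNAJB9, an endoplasmic reticulum chaperone, had 43.3, 18.5 and 25.2 CPM in 4E, against 142, 67.4 and 38.7 CPM in OA (-1.53 ± 0.45). PPP1R15A (GADD34), which reverses phosphorylation of eIF2, had 136, 71.8 and 85.1 CPM in 4E, against 305, 184 and 116 CPM in OA (-1.05 ± 0.33). ATF4, the factor of the integrated stress response, had 130.0, 112 and 161 CPM in 4E, against 254, 153 and 153 CPM in OA (-0.49 ± 0.26). In each of these 3 genes the groups overlapped and OA replicate 1 was highest. AHSA1, a co-chaperone of HSP90, stood at -0.79 ± 0.28, HSPD1, the mitochondrial chaperonin, at -0.92 ± 0.34 and PDIA4, a disulfide isomerase, at -0.60 ± 0.26. Heat shock and DNAJ genes divided into 21 higher and 23 lower, and ATF4 and unfolded protein response genes into 11 higher and 13 lower. Among 16 interferon genes, IFIH1 (MDA5), a sensor of viral RNA, had 7.58, 4.35 and 12.6 CPM in 4E, against 23.96, 13.1 and 30.7 CPM in OA (-1.50 ± 0.57), PARP14 stood at -0.65 ± 0.36 and PSMB9, an immunoproteasome subunit, at -0.51 ± 0.31, and 10 were lower.

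The higher genes of smallest p had a variety of roles. ACTR1B, a subunit of dynactin, had 193, 153 and 222 CPM in 4E, against 85.04, 115 and 89.8 CPM in OA and the smallest p of all higher genes, with a log2 change of 0.97 ± 0.24 and an adjusted p of 0.373. BLOC1S2, a subunit of a lysosome-positioning complex, had 51.996, 48.9 and 29.9 CPM in 4E, against 11.3, 17.1 and 13.6 CPM in OA (1.66 ± 0.42). STX1A, a syntaxin of membrane fusion, had 85.6, 68.5 and 115 CPM in 4E, against 27.3, 35.2 and 53.4 CPM in OA (1.23 ± 0.33). SEC22B, which tethers vesicles between endoplasmic reticulum and Golgi, had 68.2, 79.4 and 72.5 CPM in 4E, against 25.8, 40.2 and 40.9 CPM in OA (1.06 ± 0.30). AVL9 had 206, 222 and 235 CPM in 4E, against 118, 124 and 151 CPM in OA (0.76 ± 0.21). RAMP3, a receptor partner protein, had 77.99, 116 and 80.3 CPM in 4E, against 22.1, 48.3 and 50.02 CPM in OA (1.23 ± 0.34). In each, the lowest 4E library exceeded the highest OA library. ARHGAP15 and ARHGAP25, which switch off Rac, stood at 0.71 ± 0.20 and 0.72 ± 0.21, ELL, an elongation factor of RNA polymerase II, at 1.20 ± 0.34, and CBX7, a Polycomb protein, at 1.14 ± 0.33, the last becoming 0.78 without OA replicate 1. Among the largest changes on the higher side, BCAT2, the mitochondrial transaminase of branched amino acids, had 13, 25 and 15 counts in 4E, against 15, 6 and 8 counts in OA (1.54 ± 0.53), and FAM169B had 18, 42 and 17 counts in 4E, against 25, 6 and 12 counts in OA (1.54 ± 0.50). On the lower side, RAB5A, the GTPase of early endosomes, had 10, 4 and 1 counts in 4E, against 139, 20 and 22 counts in OA (-2.66 ± 0.64), and SHANK3, a scaffold protein, had 2, 8 and 8 counts in 4E, against 62, 50 and 34 counts in OA (-2.36 ± 0.55).

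Chromatin and actin genes were among the lists with members above all OA libraries, and the nuclear pore list was mostly lower. Of 62 chromatin genes 36 were higher and 26 lower, at a median of 0.072 that became -0.071 without composition scaling, and 12 lay above all OA libraries (19.4%, against 8.36% of all tested genes) and 3 below (4.84%, against 8.45%). KDM2B, a histone demethylase, had 1132, 1306 and 1342 CPM in 4E, against 454, 725 and 1027 CPM in OA (0.78 ± 0.26). SMARCA2, an ATPase of the BAF remodeller, had 668, 816 and 779.8 CPM in 4E, against 311, 511 and 613 CPM in OA (0.66 ± 0.24). EZH2, the Polycomb methyltransferase that dividing cells use, had 41.2, 27.2 and 25.2 CPM in 4E, against 107, 39.2 and 57.98 CPM in OA (-1.14 ± 0.39). Of these 3, only EZH2 had overlapping groups. Of 54 splicing factors 30 were higher and 24 lower, a balance whose median of 0.066 became -0.074 without composition scaling. SRSF7 stood at 0.51 ± 0.22, HNRNPF at -1.01 ± 0.33 and HNRNPLL, which guides CD45 splicing, at -0.73 ± 0.30. The nuclear pore and transport list had 32 of 39 lower at a median of -0.27 (-0.085 without OA replicate 1), with RAN, the GTPase that drives transport, at 50.9, 61.99 and 29.9 CPM in 4E, against 132, 79.4 and 64.8 CPM in OA (-0.95 ± 0.34). XPO1, the main export receptor, had 130.0, 52.2 and 45.7 CPM in 4E, against 278, 131 and 126 CPM in OA (-1.23 ± 0.39). In the list of apoptosis regulators, CDKN1B (p27), an inhibitor of cyclin-dependent kinases, had 469, 579 and 551 CPM in 4E, against 326, 344 and 399 CPM in OA (0.58 ± 0.20). BAX, a pore protein of mitochondria, had 139, 156 and 119.7 CPM in 4E, against 107, 81.5 and 96.6 CPM in OA (0.53 ± 0.23), and in both genes every 4E library was above every OA library; CASP8 stood at 0.66 ± 0.46 with overlap. Of the dynein and dynactin list, DYNLL1, a light chain, stood at -1.48 ± 0.51 and BICD2, a cargo adaptor, at 0.60 ± 0.25. Among 45 actin and motility genes 21 were higher and 24 lower, at a median of -0.081 that became -0.22 without composition scaling. Of these genes, 10 lay above all OA libraries (22.2%, against 8.36% of all tested genes) and 1 below (2.22%, against 8.45%). FYB, an adaptor of integrin activation, had 422, 431 and 397 CPM in 4E, against 148, 263 and 321 CPM in OA (0.78 ± 0.26), EVL stood at 0.52 ± 0.20 and ARPC5, of the actin-branching Arp2/3 complex, at 0.65 ± 0.23.

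Among the lower genes of largest change were some known from cells other than T cells. COL3A1, a fibrillar collagen, had 3.25, 2.17 and 6.30 CPM in 4E, against 21.6, 85.5 and 191 CPM in OA, from 3, 2 and 4 counts in 4E, against 46, 85 and 168 counts in OA. It fell in DESeq2 (adjusted p = 6.87e-07), and in edgeR its log2 change of -4.68 ± 0.76 had an adjusted p of 0.085. COL1A1 had 18.4, 18.5 and 25.2 CPM in 4E, against 44.6, 190.1 and 410.4 CPM in OA (-3.37 ± 0.60, adjusted p = 0.129 in edgeR and 0.0898 in DESeq2), and COL1A2 had 8.67, 9.79 and 25.2 CPM in 4E, against 24.4, 104 and 273 CPM in OA (-3.23 ± 0.70, adjusted p = 0.354 in edgeR). In these collagens OA replicate 3 was highest and OA replicate 1 lowest of the OA libraries. MPO, the peroxidase of neutrophil precursors, had 2, 0 and 4 counts in 4E, against 152, 37 and 29 counts in OA and fell in DESeq2 (adjusted p = 1.08e-04; -4.20 ± 0.70 and adjusted p = 0.085 in edgeR). JCHAIN, the joining chain of secreted antibodies, had 5, 3 and 2 counts in 4E, against 105, 16 and 32 counts in OA and fell in DESeq2 as well (adjusted p = 0.0206; -3.07 ± 0.59 and 0.207 in edgeR). ADGRG1, an adhesion receptor, had 2, 0 and 0 counts in 4E, against 49, 11 and 10 counts in OA.

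Red cell messages were uneven between the OA libraries. HBB, a globin, had 24.9, 69.6 and 156 CPM in 4E, against 79.9, 849.7 and 365 CPM in OA (-2.40 ± 0.67). The globin row HBD had 4.33, 1.09 and 18.9 CPM in 4E, against 22.1, 173 and 68.2 CPM in OA (-3.56 ± 0.78, adjusted p = 0.354). The list of red cell and platelet genes summed to 473, 585 and 758 CPM in 4E, against 505, 2029 and 1095 CPM in OA. TUBB1, a tubulin of platelets, had 1, 1 and 3 counts in 4E, against 28, 16 and 10 counts in OA, and SPTB, the spectrin of red cells, stood at -1.88 ± 0.66 with overlap. The order of OA libraries thus differed between gene groups: the collagens were highest in replicate 3, the globins in replicate 2 and MPO in replicate 1.

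As whole lists, stromal and endothelial markers summed to 719 to 944 CPM in 4E and 849 to 1897 CPM in OA. Granulocyte and myeloid markers summed to 218 to 345.0 CPM in 4E and 344.9 to 439.8 CPM in OA. B cell markers summed to 619.6 to 1495 CPM in 4E and 572 to 1248 CPM in OA. All 3 ranges overlapped. In the stromal list the overlap came from VIM, vimentin, which T cells also make and which had 671, 611 and 777 CPM in 4E, against 599.97, 688 and 891 CPM in OA. Without VIM the stromal sum was 87.7, 108 and 167 CPM in 4E, against 249, 499.8 and 1006 CPM in OA. In the myeloid list CTSS, cathepsin S, had 117, 177 and 158 CPM in 4E, against 114, 134 and 167 CPM in OA. Without CTSS the myeloid sum was 101, 140.3 and 187 CPM in 4E, against 326, 211 and 250.1 CPM in OA. Both of these sums, formed after the values were seen, lay lower in every 4E library than in any OA library. Of 31 stromal markers 9 were tested, 3 through OA alone, and 8 were lower, 4 of them below all OA libraries (44.4%, against 8.45% of all tested genes). Of 33 myeloid markers 8 were tested, 2 through OA alone, and 6 were lower, 3 of them below all OA libraries (37.5%). Of 30 B cell markers 13 were tested and 9 were higher, with RALGPS2 at 0.60 ± 0.26, CD74 at 0.60 ± 0.35 and SYK at 0.47 ± 0.35. Of 10 plasma cell genes 5 were tested, 2 through OA alone, and IRF4 and XBP1, beside JCHAIN, stood at 0.24 ± 0.24 and 0.32 ± 0.33. Of 20 CD8 T and NK cell genes 2 were tested, CTSW at -0.87 ± 0.84 and EOMES at -0.36 ± 0.51, and 11 were at 0 in all 6 libraries, CD8B, GZMK and NCR1 among them. Other defining markers were at 0 in all 6 libraries. They included DCN, LUM, MGP and FLT1 for stroma and vessel, and HBA1, HBA2, PF4, GP9 and GP1BA for red cell and platelet. They also included S100A8, LCN2, CAMP, CD33, FCN1 and CST3 (myeloid), FCER2, VPREB3, IGLL1 and HLA-DRA (B cell), and TNFRSF17 (plasma cell). HBA1 and HBA2 were at 0 although HBB had 845 counts in OA replicate 2, and CD3D and EIF4A1 were at 0 as well, so a 0 says only that the row of that symbol is listed at 0. CEBPA and SPI1, myeloid transcription factors, stood at -1.21 ± 0.42 and -2.07 ± 0.79, each with all 4E libraries below all OA libraries. The part of other cells in the differences of this comparison was not tested. With OA replicate 1 left out, edgeR's quasi-likelihood test called 10 genes, all lower in 4E: COL1A1, COL3A1, COL1A2, HBB, HBD, SPTB, TMCC2, ANK1, MPO and CPOX. These are 3 collagens, 2 globin rows, red cell genes such as the spectrin SPTB and the ankyrin ANK1, the heme enzyme CPOX, and MPO. No gene of the mitosis or S phase list was among the 10; TOP2A then stood at -1.79 with an adjusted p of 0.146 in edgeR's quasi-likelihood test.

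**Figure D4:**
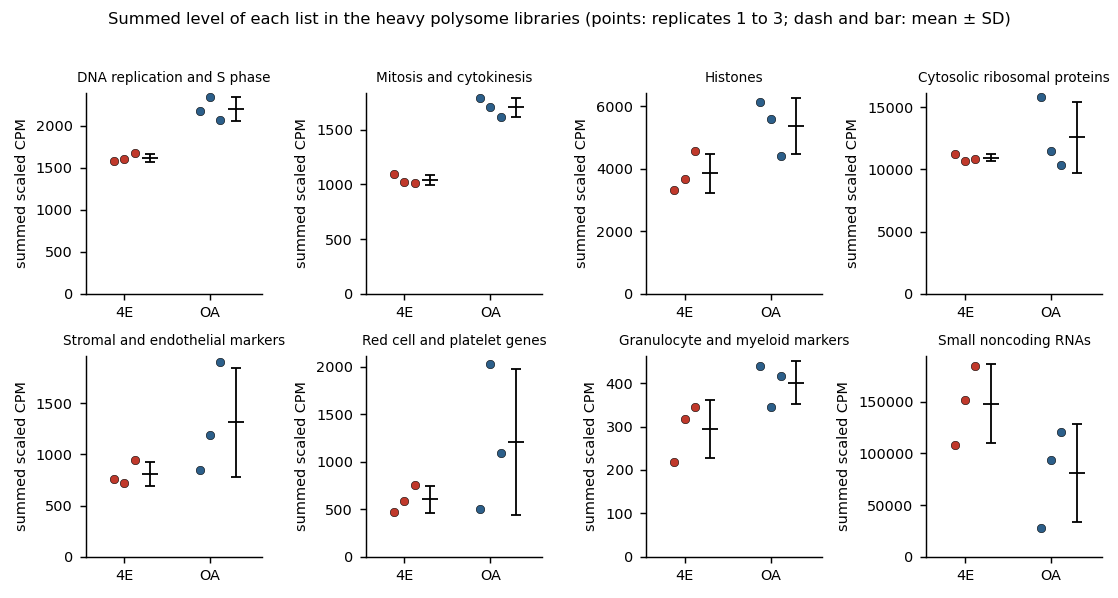
Summed level in scaled CPM of 8 gene lists in each heavy polysome library, 4E left of OA, with a dash and bar for the mean ± SD of 3 libraries. The mitosis and S phase sums separate the groups. The stromal, red cell and myeloid sums overlap and vary between OA replicates. The stromal sum without VIM and the myeloid sum without CTSS, formed after the values were seen and not drawn, do not overlap.

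Most tested small noncoding RNAs were higher in 4E, to a degree that depended on the libraries and the filter. Of 38 tested, 30 were higher at a median of 0.46, and 3 lay above all OA libraries (7.89%, against 8.36% of all tested genes). Without OA replicate 1 the median was 0.084, with 22 higher and 16 lower, and with no count filter it was -0.32. RN7SL2, a 7SL row, had 3480.5, 4164 and 5791 CPM in 4E, against 501, 2188 and 2962 CPM in OA (1.25 ± 0.44). The guide RNA SNORA74B had 33.6, 67.4 and 88.2 CPM in 4E, against 8.93, 15.1 and 29.6 CPM in OA (1.87 ± 0.48). SNORD94 had 80.2, 137 and 118 CPM in 4E, against 29.6, 50.3 and 67.1 CPM in OA (1.22 ± 0.33). How far the polyA selection named in the labels affected small noncoding RNAs was not tested. The 5 tested rows with an MTRNR2L symbol, a name for nuclear copies that resemble mitochondrial ribosomal RNA, were all higher. MTRNR2L6 had 6491, 4378 and 2762 CPM in 4E, against 675, 2089 and 2651 CPM in OA (1.33 ± 0.40, 0.94 without OA replicate 1). By the symbol alone, reads of the MTRNR2L rows cannot be told apart from those of mitochondrial ribosomal RNA. Whether they came from mouse genes of that name was not tested.

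Whether these differences lay in polysome loading or already in total RNA was asked with the interaction, the 4E minus OA change in heavy polysomes minus that in input. No gene passed it at an adjusted p of 0.05 in edgeR's quasi-likelihood test (0%), and 147 genes (2.1%) had an unadjusted p under 0.05, 93 higher (1.33%) and 54 lower (0.773%). DESeq2 gave 145 such genes and also called 0. In 5 input libraries most gene reads were small noncoding RNAs, which left fewer reads for other genes. The absence of calls therefore does not show that the change was equal in heavy polysomes and input. Of the 162 named genes, 81 were lower and 53 higher in both fractions, and 28 had opposite signs. Most of these genes were picked for a small p in heavy polysomes, so the counts do not stand for all tested genes. In input RNA the log2 change was -2.15 ± 0.55 for TOP2A, -5.22 ± 2.13 for CCNA2, -0.73 ± 0.27 for MCM6 and -5.25 ± 1.20 for COL3A1. The interaction was -0.02 ± 0.66 for TOP2A and -0.22 ± 0.36 for MCM6. The mitosis list had an input median of -1.02 and the S phase list one of -0.57, with interaction medians of -0.046 and 0.41. OA input replicate 1 stood apart from the other input libraries, with 33.6% of its gene reads in small noncoding RNAs, against 70.98 to 78.3% in the other 5. Without it, an alternative added after seeing the data, 60 of the 162 named genes were lower in both fractions, 45 higher in both and 57 of opposite sign. The interaction then passed at an adjusted p of 0.05 in 0 genes and had an unadjusted p under 0.05 in 317 (edgeR's quasi-likelihood test). The input medians were then -0.81 for mitosis and -0.74 for S phase, with interaction medians of 0.13 and 0.47, and the input change was -2.07 ± 0.58 for TOP2A, -0.56 ± 0.30 for MCM6 and -5.77 ± 1.02 for COL3A1. ACTR1B had a log2 change of 1.004 ± 0.24 in input.

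The genes given here come from the 5 of smallest interaction p in each direction, among genes with an unadjusted heavy p under 0.05. Both p-values are from edgeR's quasi-likelihood test. All of these genes were weakly supported. PDCD6, a calcium-binding adaptor, had 10, 12 and 13 counts in 4E, against 10, 5 and 3 counts in OA (1.69 ± 0.61), and was at 0 in all 4E input libraries. PDXK, pyridoxal kinase, had 38.997, 60.9 and 67.7 CPM in 4E, against 20.7, 22.1 and 32.97 CPM in OA in heavy polysomes (1.16 ± 0.36) and a log2 change of -0.96 ± 0.56 in input, an interaction of 2.13 ± 0.69. UBA6, a ubiquitin-activating enzyme, had 47.7, 54.4 and 50.4 CPM in 4E, against 38.1, 25.1 and 19.3 CPM in OA (0.85 ± 0.35) with an interaction of 2.17 ± 0.69, and KIAA1147 stood at 0.93 ± 0.43 with one of 2.09 ± 0.85. On the other side, EEF1B2 had a log2 change of 0.18 ± 0.53 in input, an interaction of -1.91 ± 0.73. ZNF219 had 18.4, 19.6 and 22.1 CPM in 4E, against 31.01, 69.4 and 38.7 CPM in OA (-1.20 ± 0.41) with an interaction of -1.94 ± 0.63. FAM173A had 0, 2 and 1 counts in 4E, against 15, 11 and 10 counts in OA. RAB22A, an endosomal GTPase, stood at -1.14 ± 0.45 in heavy polysomes and 0.71 ± 0.57 in input, and ARHGAP12 at -1.16 ± 0.43 and 0.28 ± 0.41. The adjusted p of each of these interactions was 0.9999 in edgeR's quasi-likelihood test. Without OA input replicate 1 the interaction was 1.42 ± 0.74 for UBA6, 2.47 ± 0.72 for PDXK and 2.59 ± 0.81 for KIAA1147. It was then -1.91 ± 0.83 for EEF1B2 and -2.34 ± 0.73 for ZNF219.

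**Figure D5:**
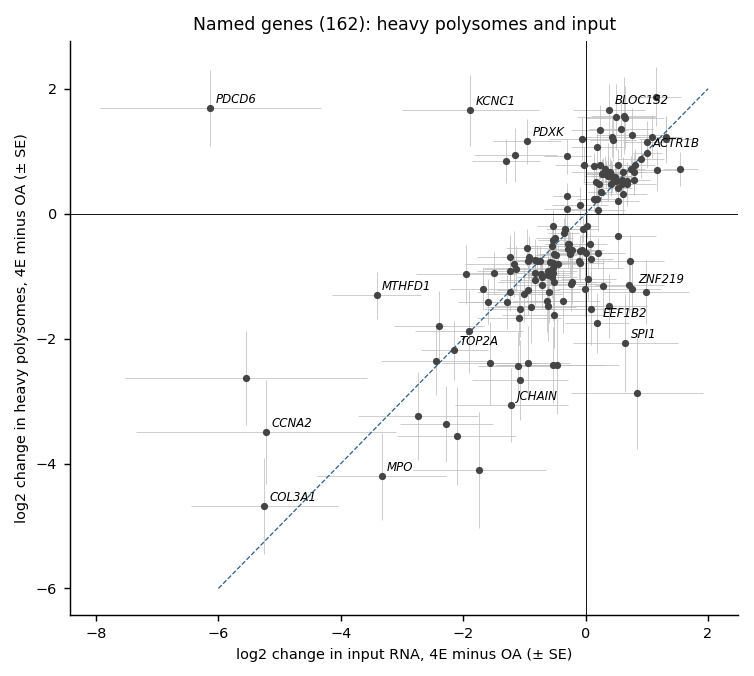
Log2 change (4E minus OA, ± SE) in heavy polysomes against that in input RNA for the 162 named genes; the dashed line marks equal change. Most points lie in the lower left or upper right, 81 lower in both and 53 higher in both with all input libraries. Opposite signs number 28, and 57 without OA input replicate 1 (not drawn). PDCD6, which had no reads in 4E input, lies apart at the upper left with KCNC1 and PDXK nearer the centre.

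Length and base composition of the transcripts were set beside the changes for the 6414 tested genes (91.8%) whose symbol matched a protein-coding gene of GENCODE M21. Across genes, which are not independent replicates, the rank correlation of the log2 change with coding length was 0.054, with 5′ UTR length -0.049 and with transcript GC content 0.162. With genes divided into 5 bins of equal size, the median log2 change was -0.17 in the bin of lowest GC content and 0.062 in the bin of highest. Without OA replicate 1 the correlation with GC content was 0.055, and the deviation of that library from the mean of all 6 had the strongest relation to GC content of any library (-0.25). In the bin of shortest coding lengths the median was -0.11, against -0.028 in the bin of longest.

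The authors' deposited table for heavy polysomes holds 759 of 11226 genes (6.76%) past an absolute log2 fold change of 1 at an unadjusted p under 0.05, with 160 higher (1.43%) and 599 lower (5.34%). At an adjusted p under 0.05 the authors' deposited table holds 10 genes (0.0891%), 1 higher (0.00891%) and 9 lower (0.0802%). At the same kind of threshold, 161 genes were shared with the 342 found here, which is 21.2% of the authors' list and 47.1% of the list here; 185 of the authors' 759 were among the genes tested here. In the authors' deposited table MPO stands at -4.35 and COL3A1 at -4.08, with adjusted p-values of 0.164 and 0.205 there.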

How the data were processed

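Heavy polysomes of sorted CD4+ T cells were sequenced from 3 4E and 3 OA libraries, with 3 input libraries of each arm. The labels' protocols describe sucrose gradients and a polyA-selected, stranded preparation; the submitters' processing notes name Bowtie and mm9. The authors deposited whole-number read counts per gene symbol, in human-style capitals, and a table of their own comparisons (4E arm over OA) that gives log2 fold changes with raw and adjusted p-values. Of 6986 tested symbols, 6714 match a mouse symbol or synonym. Rows for reads in no gene or ambiguous, 16.4 to 31.4% of reads in the heavy libraries, were left out, and 28 date-like symbols are not named.

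Genes that reached 10 counts in 3 or more of the 6 heavy libraries were tested with edgeR 4.0.16 (R 4.3.3, TMM factors, quasi-likelihood, no block, Benjamini-Hochberg adjustment, threshold 0.05). The standard error of a log2 change is its size over the root of the F statistic. The interaction used all 12 libraries and the same genes. DESeq2 1.42.0 and limma 3.58.1, other scalings and filters, a replicate block and leaving out each library were the alternatives. The scripts' behaviour was checked on simulated counts. Standard errors include the scatter among libraries, while floors cover counting error only. A count of 0 was read as up to 3 counts. The biological coefficient of variation was 0.278.

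Members, the 42 gene lists and the rule for named genes were chosen with earlier results of these data known. The rule takes the 12 genes of smallest p in each direction and the 5 largest changes in each direction. It also takes the 3 members of smallest p per list and a set of 17 genes tied to the treatment and cell type. Last come the 5 genes of smallest interaction p in each direction, among those with an unadjusted heavy p under 0.05 (edgeR's quasi-likelihood test). Some genes that the rule names are not reported here. A list of mitochondrially encoded genes had 0 members in the table. Transcript features come from GENCODE M21 and promoter sequences from the RefSeq table of GRCm38.p6, a build other than that of the counts, so they were joined by symbol and no coordinates were converted. The 12 libraries of the series are input and heavy polysome RNA only, with no light-fraction or sorted follicular helper libraries among them.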

Additional observations from a re-analysis of the deposited data

Results flagged for a closer look

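In 13 of the 6986 tested genes the 4E libraries lay all on one side of the OA libraries in heavy polysomes and all on the opposite side in input RNA, and 2 of these are named genes. Neither passed the test of the difference (adjusted p = 0.9999 in edgeR's quasi-likelihood test). PDCD6, a calcium-binding adaptor, had 6.11, 7.31 and 11.4 CPM in 4E heavy libraries, against 2.61, 2.76 and 1.90 CPM in OA heavy libraries, with scaling over all 12 libraries. In input it had 0 reads in all 4E libraries, against 9.54, 3.26 and 3.38 CPM in OA. Its fitted interaction, the change in heavy polysomes minus that in input, was 7.83 ± 1.85 on the log2 scale, a value set by the prior count that stands in for 0 and no bound. PDXK, pyridoxal kinase, had 21.99, 34.1 and 37.7 CPM in 4E heavy libraries, against 11.5, 12.2 and 18.3 CPM in OA heavy libraries. In input it had 8.67, 4.54 and 8.82 CPM in 4E, against 9.54, 19.5 and 16.9 CPM in OA, an interaction of 2.13 ± 0.69.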

How the results depend on the processing

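The number of genes past an adjusted p of 0.05 in heavy polysomes was 0 with edgeR's quasi-likelihood test and 107 without the count filter (29 higher, 78 lower). DESeq2 gave 4 (4 lower), and leaving out 1 library gave 0 to 10, where the 10, all lower, came without OA replicate 1 and higher genes stayed at 0. At an unadjusted p under 0.05 with an absolute log2 change over 1 there were 342 genes, 733 without the filter (141 higher, 592 lower) and 71 at a filter of 50 counts (16 higher, 55 lower). A filter on the mean CPM of all 6 libraries, added after seeing the data, called 0 genes (780 at an unadjusted p under 0.05) and changed no named gene's sign. Without composition scaling 44 were higher and 422 lower, against 76 and 266. Leaving out 1 library gave 215 to 553, with 55 to 199 higher and 160 to 362 lower; the extremes were OA replicate 1 (215, with 160 lower) and OA replicate 3 (553, with 199 higher), and without 4E replicate 1 the higher genes numbered 115. Genes whose 4E libraries lay above all OA libraries numbered 584, and 326 without composition scaling. For the interaction the count was 0, with 147 genes at an unadjusted p under 0.05, and 4 without the filter, all lower: RNA18S5, RNU11, SNORA51 and SNORA73A. Deviations of same-numbered libraries correlated at 0.266, 0.0051 and 0.164, and those of differently numbered libraries at -0.227 to 0.093. 4E replicate 2 correlated best with OA replicate 3 (0.070). With so few libraries these correlations cannot settle whether replicate numbers pair the samples, and the main test used no pairing. With the replicate block 64 genes were called (31 higher, 33 lower). The small noncoding RNA difference of 5.72 points was 1.31 without 7SL rows and 3.91 as a share of all reads. Of the named genes, 6 changed sign: CD247 (-0.0096 without composition scaling; leaving out 1 library, -0.0042 to 0.34), CD3E (leaving out 1, -1.28 to 0.18), EIF4EBP2 (-0.075 without composition scaling; leaving out 1, -0.19 to 0.32), LAT (-0.060 without composition scaling, -0.085 with limma-voom; leaving out 1, -0.26 to 0.35), MYC (leaving out 1, -0.064 to 0.42) and PTPRC (0.020 with limma-voom; leaving out 1, -0.33 to 0.14). In 46 named genes at least 1 alternative made a call that edgeR with the filter did not. A gene at 3 counts stood at 1.41 to 4.73 CPM, which limits all low genes. Where causes are not given, they were not tested.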

Other observations

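The 10 genes past an adjusted p of 0.05 in the authors' deposited table for heavy polysomes were 9 lower and 1 higher in the 4E arm. In the authors' deposited table CENPV, a centromere protein, stands at a log2 fold change of -3.50, CDCA3, which marks dividing cells, at -2.47, CMC1 at -2.88, SNAPC5 at -2.94 and LTBP3 at -2.93. In the authors' deposited table FAM161A, the higher one, stands at 2.96. The adjusted p-values in the authors' deposited table run from 0.0253 to 0.0439 over the 10. The 9 lower genes had 0 counts in all 3 4E heavy libraries, so a fold change for them depends on the value that stands in for 0.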
